A study of Mus musculus with 7 samples.

Results

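The genes of cholesterol synthesis, sensing, uptake, transport and esterification were examined in whole liver of mice with and without liver-specific deletion of *Rbpj*. The genes were taken by name from a list of 32 symbols, and their probes were the non-control spots of the array that carry 1 of these names. The array held 31 of the 32 names, because *Sc4mol* is an older symbol of *Msmo1*. These 31 genes had 45 probes, and 30 of the genes, with 43 probes, were measured well enough to be tested, out of 18771 tested gene names in all. The gene that was not tested was *Npc1l1*, a sterol uptake receptor, whose probe was well above background on 0 of 7 arrays.

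RNA of whole liver was hybridised to 1-colour mouse oligonucleotide arrays, with 1 array per animal and no pooling. All 7 animals were untreated C57BL/6J mice at the age of 4 weeks that carried the floxed *Rbpj* allele on both chromosomes. The *Rbpj*+/+ group consisted of 4 *AlfpCre*- animals (+/+_1155, +/+_1156, +/+_1024 and +/+_991) and the *Rbpj*-/- group of 3 *AlfpCre*+ animals (-/-_N3, -/-_N5 and -/-_2866). *AlfpCre* is active in the precursors of hepatocytes and bile duct cells, so other liver cells keep the gene, and the *Rbpj*-/- animals of the study were small, cholestatic and had necrotic areas in the liver. RBPJ is the DNA-binding protein through which Notch receptors control transcription. The *Rbpj* probe was lower in *Rbpj*-/- liver by a log2 fold change of -1.13 (SE 0.24, limma adjusted p = 0.0115), without overlap between the genotypes.

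Cholesterol is built from acetyl-CoA by way of mevalonate, isoprenoid diphosphates, squalene and lanosterol, and the liver also takes it up from lipoproteins. When sterols in the endoplasmic reticulum are low, the protein SCAP carries the transcription factor SREBP2 to the Golgi, where it is cut and released to raise the genes of synthesis and uptake, while the INSIG proteins hold the complex back. The liver is the main organ that turns cholesterol into bile acids and exports it into bile, and cholestasis blocks this exit.

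The upstream sequences of 3 of the genes are shown because they carry the letters of the sterol response and of a nearby factor in different arrangements. They are *Hmgcs1*, a classical sterol-regulated gene, *Ebp*, which fell, and *Npc2*, which rose. Each line gives the 250 bases before the annotated start, 5′ to 3′ in the direction of the gene, from RefSeq on GRCm38.p6. Capitals mark TCACNCCAC, the core of sterol regulatory elements, and CCAAT, the box bound by NF-Y, which reads ATTGG where it lies on the other strand.
Hmgcs1, chr13:119690101-119690350, plus strand: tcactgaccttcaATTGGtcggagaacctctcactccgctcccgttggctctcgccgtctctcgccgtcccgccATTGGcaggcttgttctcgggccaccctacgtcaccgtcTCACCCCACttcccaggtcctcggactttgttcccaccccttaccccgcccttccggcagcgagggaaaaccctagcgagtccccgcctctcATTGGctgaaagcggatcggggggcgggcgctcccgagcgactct
Ebp, chrX:8193513-8193762, minus strand: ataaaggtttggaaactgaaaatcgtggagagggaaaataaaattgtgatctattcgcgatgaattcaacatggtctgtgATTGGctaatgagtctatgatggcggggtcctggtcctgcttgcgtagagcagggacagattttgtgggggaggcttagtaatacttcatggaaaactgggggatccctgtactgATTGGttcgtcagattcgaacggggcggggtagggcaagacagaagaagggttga
Npc2, chr12:84773113-84773362, minus strand: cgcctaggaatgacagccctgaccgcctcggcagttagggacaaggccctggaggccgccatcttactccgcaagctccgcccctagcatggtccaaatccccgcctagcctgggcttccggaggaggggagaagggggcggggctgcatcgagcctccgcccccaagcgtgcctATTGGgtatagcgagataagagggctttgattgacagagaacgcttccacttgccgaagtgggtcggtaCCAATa
The window of *Hmgcs1* held the sterol element from base 137 to base 129 before the start and 3 CCAAT boxes. The windows of *Ebp* and *Npc2* held 2 CCAAT boxes each and no TCACNCCAC.

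Of the 31 genes, 24 were matched to such a window by symbol. On either strand, CCAAT was present in 21 of the 24, against 39.5% of all 17492 protein-coding genes with a window. The exceptions were *Acat2*, *Lrp1* and *Scap*. GGGCGG, a GC box bound by SP1, was present in 20 of the 24, against 45.8%. TCACNCCAC was present in 1 of the 24, *Hmgcs1*, against 1.20%. TGGGAA, the core of RBPJ sites, was present in 7 of the 24 (*Ggps1*, *Hmgcs1*, *Lrp1*, *Mvk*, *Nsdhl*, *Sc5d* and *Scap*), against 23.5%. These are matches of letters and not measured binding, and the motifs were searched separately without regard to overlap. The 7 genes with TGGGAA included 2 that were lower in *Rbpj*-/- liver (*Ggps1* and *Scap*) and 5 that were not called in either direction. Over all genes tested, 19.6% were called lower and 34.2% in either direction. The called genes *Fdps*, *Sqle* and *Stard4* had no window, and a link between the motif and the calls was not tested.

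Expression is given as log2 intensity relative to the 75th percentile of the same array, so that 0 is the level of that percentile. Where a gene had several tested probes, the brightest one stands for it. Animals are named by genotype and the number of their array, and values are always listed in the order +/+_1155, +/+_1156, +/+_1024 and +/+_991 for *Rbpj*+/+ and -/-_N3, -/-_N5 and -/-_2866 for *Rbpj*-/-. A gene was called at a Benjamini-Hochberg adjusted p below 0.1 from limma, with adjustment over all 24548 tested probes. This is the false discovery rate that the study chose.

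Most cholesterol genes did not pass the test. Of the 30 tested genes, 7 (23.3%) were called, 2 higher and 5 lower in *Rbpj*-/- liver. Over all genes tested, 34.2% were called, 14.6% higher and 19.6% lower, so the share among the cholesterol genes did not exceed this background. The order of the 2 shares depended on the animals. Without animal -/-_2866, 9 of the 30 genes (30%) were called, against 27.8% of all genes. The difference between the shares was not tested. *Sqle* and *Npc2* rose, and *Fdps*, *Ggps1*, *Ebp*, *Scap* and *Stard4* fell. The 30 genes had a median log2 fold change of -0.18, and all tested genes had one of -0.13. The genotypes were free of overlap for 6 of the 30 genes, against 36.5% of all tested genes. In whole liver, fewer cells of a type and less RNA per cell cannot be told apart. The *Rbpj*+/+ arrays lay in row 1 of the slide and the *Rbpj*-/- arrays in row 2, so row and genotype cannot be told apart either.

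**Figure D1:**
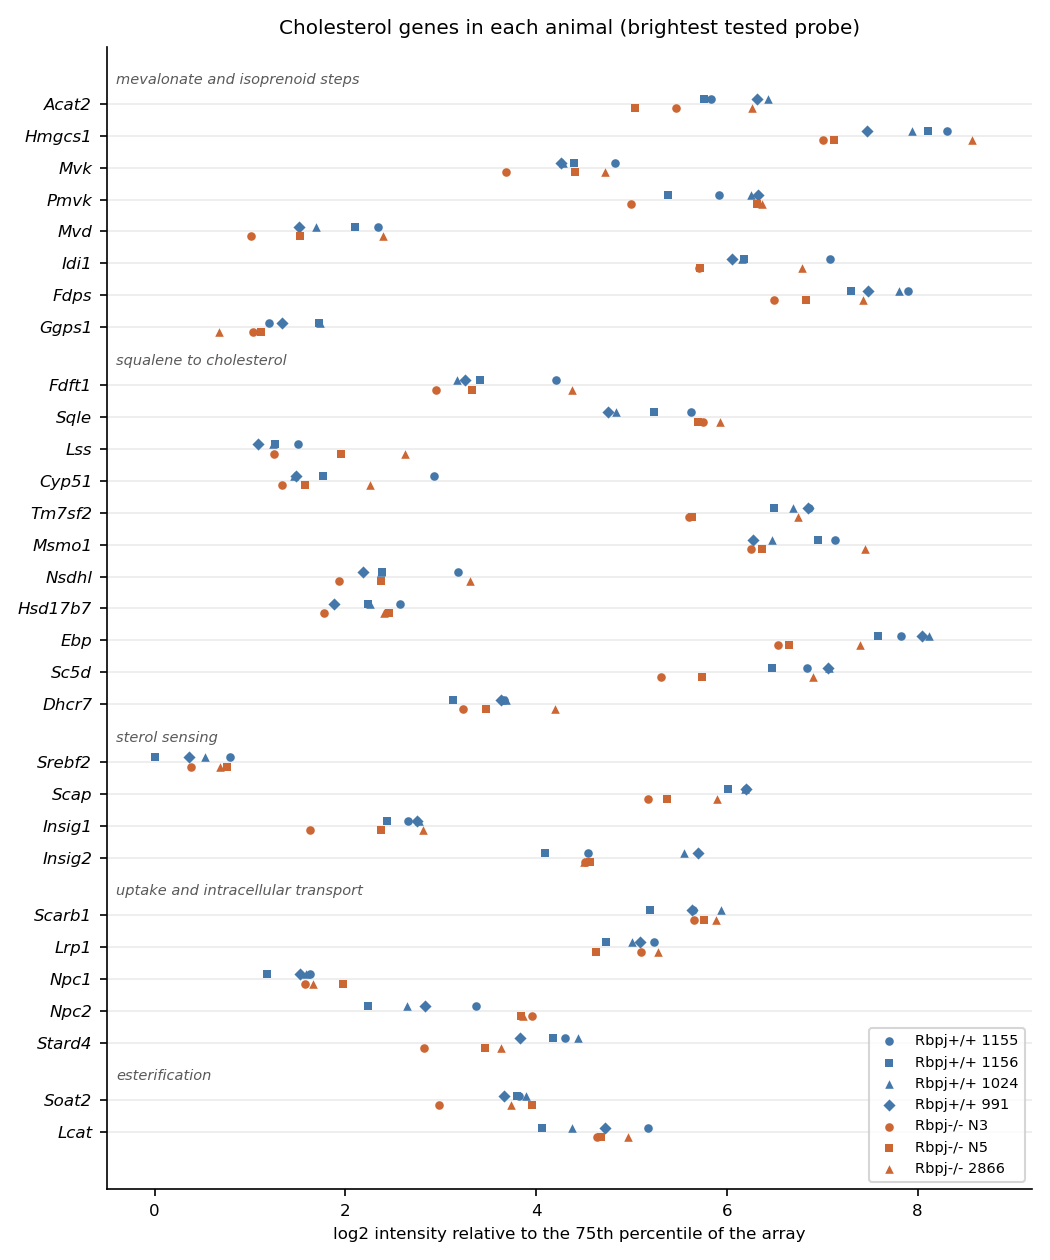
Log2 intensity relative to the 75th percentile of the array (x axis) of the 30 tested cholesterol genes (y axis, by role), with 1 point per animal, blue for *Rbpj*+/+ and orange for *Rbpj*-/-. In most synthesis enzymes the *Rbpj*-/- animal -/-_2866 (triangle) lies to the right of -/-_N3 and -/-_N5, while for *Npc2* all 3 lie together above the *Rbpj*+/+ animals.

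The first part of the pathway, from acetoacetyl-CoA to the isoprenoid diphosphates, was represented by 8 enzymes, of which 0 rose, 2 fell and 6 were not called. The log2 fold change of all 8 was below 0, with a median of -0.34, but *Mvk* (0.07) and *Pmvk* (0.18) were above 0 under normexp background correction, and *Pmvk* (0.15) also under quantile normalization. *Fdps* makes farnesyl diphosphate, the branch point between sterols and other isoprenoids. Its values were 7.90, 7.30, 7.81 and 7.48 in *Rbpj*+/+ and 6.50, 6.83 and 7.43 in *Rbpj*-/- liver. Animals -/-_N3 and -/-_N5 lay below every *Rbpj*+/+ animal and -/-_2866 within their range. *Fdps* thus had a log2 fold change of -0.70 (SE 0.27, adjusted p = 0.088). The array's design (mouse build mm9) places this probe at chr10:93242421-93242480, whereas RefSeq places *Fdps* on chromosome 3, so a signal from a similar sequence cannot be told apart from that of the gene.

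*Ggps1* makes geranylgeranyl diphosphate, which is attached to small GTPases. Its values were 1.20, 1.72, 1.74 and 1.34 in *Rbpj*+/+ and 1.03, 1.12 and 0.68 in *Rbpj*-/- liver, without overlap. This gave a log2 fold change of -0.56 (SE 0.22, adjusted p = 0.0957), close to the threshold. The 2 dimmer probes of *Ggps1* gave -0.37 and -0.45 and were not called (adjusted p = 0.269 and 0.161), and the second of them is placed on chromosome 14 while the gene lies on chromosome 13.

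The other enzymes of this stretch of the pathway were not called. *Hmgcs1*, whose product condenses acetyl-CoA with acetoacetyl-CoA, had 8.31, 8.11, 7.94 and 7.47 in *Rbpj*+/+ and 7.01, 7.12 and 8.57 in *Rbpj*-/- liver. Animal -/-_2866 had the highest value of all 7 animals, while -/-_N3 and -/-_N5 had the lowest. Its log2 fold change was small against its error, at -0.39 with a 95% interval from -1.27 to 0.49. *Acat2*, which makes acetoacetyl-CoA, showed a similar order with 5.83, 5.76, 6.43 and 6.32 against 5.47, 5.04 and 6.26. *Idi1*, which isomerises isopentenyl diphosphate, had 7.08, 6.18, 6.16 and 6.05 against 5.71, 5.72 and 6.79. In both genes -/-_N3 and -/-_N5 lay below all *Rbpj*+/+ animals and -/-_2866 lay within their range. The kinases *Mvk* and *Pmvk* and the decarboxylase *Mvd* had log2 fold changes of -0.17, -0.08 and -0.26, with overlapping values.

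The second part, from farnesyl diphosphate through squalene to cholesterol, was represented by 11 enzymes, of which 1 rose, 1 fell and 9 were not called. Their median log2 fold change was -0.02. *Ebp* encodes the isomerase that moves a double bond of the sterol ring. It was the most lowered of the 30 genes, with 7.83, 7.59, 8.12 and 8.05 in *Rbpj*+/+ and 6.54, 6.65 and 7.40 in *Rbpj*-/- liver. All *Rbpj*-/- animals lay below all *Rbpj*+/+ animals, -/-_2866 by the smallest margin. *Ebp* had a log2 fold change of -1.03 (SE 0.26, adjusted p = 0.0227), a 2.05-fold difference, measured by a probe at chrX:7762463-7762522 of mm9.

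*Sqle*, squalene epoxidase, catalyses the first oxygen-dependent and a rate-limiting step of the sterol branch. Its values were 5.62, 5.24, 4.84 and 4.75 in *Rbpj*+/+ and 5.75, 5.70 and 5.93 in *Rbpj*-/- liver. The genotypes did not overlap, but +/+_1155 came close to -/-_N3 and -/-_N5. *Sqle* had a log2 fold change of 0.68 (SE 0.25, adjusted p = 0.0752), from a probe at chr15:59162688-59162747 of mm9. *Sqle* was thus the only synthesis enzyme called higher, in a pathway part where *Ebp* was called lower.

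3 enzymes of this stretch of the pathway had differences of similar size that missed the threshold. *Sc5d*, the lathosterol desaturase, had 6.84, 6.47, 7.07 and 7.06 against 5.31, 5.74 and 6.90, a log2 fold change of -0.88 (adjusted p = 0.109). *Tm7sf2*, a sterol reductase, had 6.86, 6.50, 6.69 and 6.85 against 5.60, 5.64 and 6.75, a log2 fold change of -0.73 (adjusted p = 0.105). In both, -/-_N3 and -/-_N5 were far below *Rbpj*+/+ and -/-_2866 was within its range. *Lss*, which closes squalene epoxide to lanosterol, had 1.50, 1.26, 1.24 and 1.08 against 1.25, 1.96 and 2.63, a log2 fold change of 0.68 (adjusted p = 0.139). Here -/-_2866 was the highest and -/-_N3 lay within the *Rbpj*+/+ range.

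The other 6 enzymes of this stretch of the pathway had log2 fold changes close to 0. They were 0.05 for the squalene synthase *Fdft1*, -0.19 for the lanosterol demethylase *Cyp51*, -0.02 for the methyl sterol oxidase *Msmo1*, 0.01 for the dehydrogenase *Nsdhl*, -0.02 for the ketoreductase *Hsd17b7* and 0.11 for *Dhcr7*, the last enzyme of the pathway. The value of *Fdft1* is that of its brighter probe only, and its dimmer probe gave 0.82 and was called higher. Of the 23 genes not called over all roles, 13 had a 95% interval within 1 log2 unit in either direction. For the other 10 genes (*Acat2*, *Hmgcs1*, *Mvd*, *Idi1*, *Lss*, *Cyp51*, *Tm7sf2*, *Sc5d*, *Insig1* and *Insig2*) the interval reached a change of at least 1 log2 unit, so a change of that size could not be told from a smaller one with 7 arrays.

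**Figure D2:**
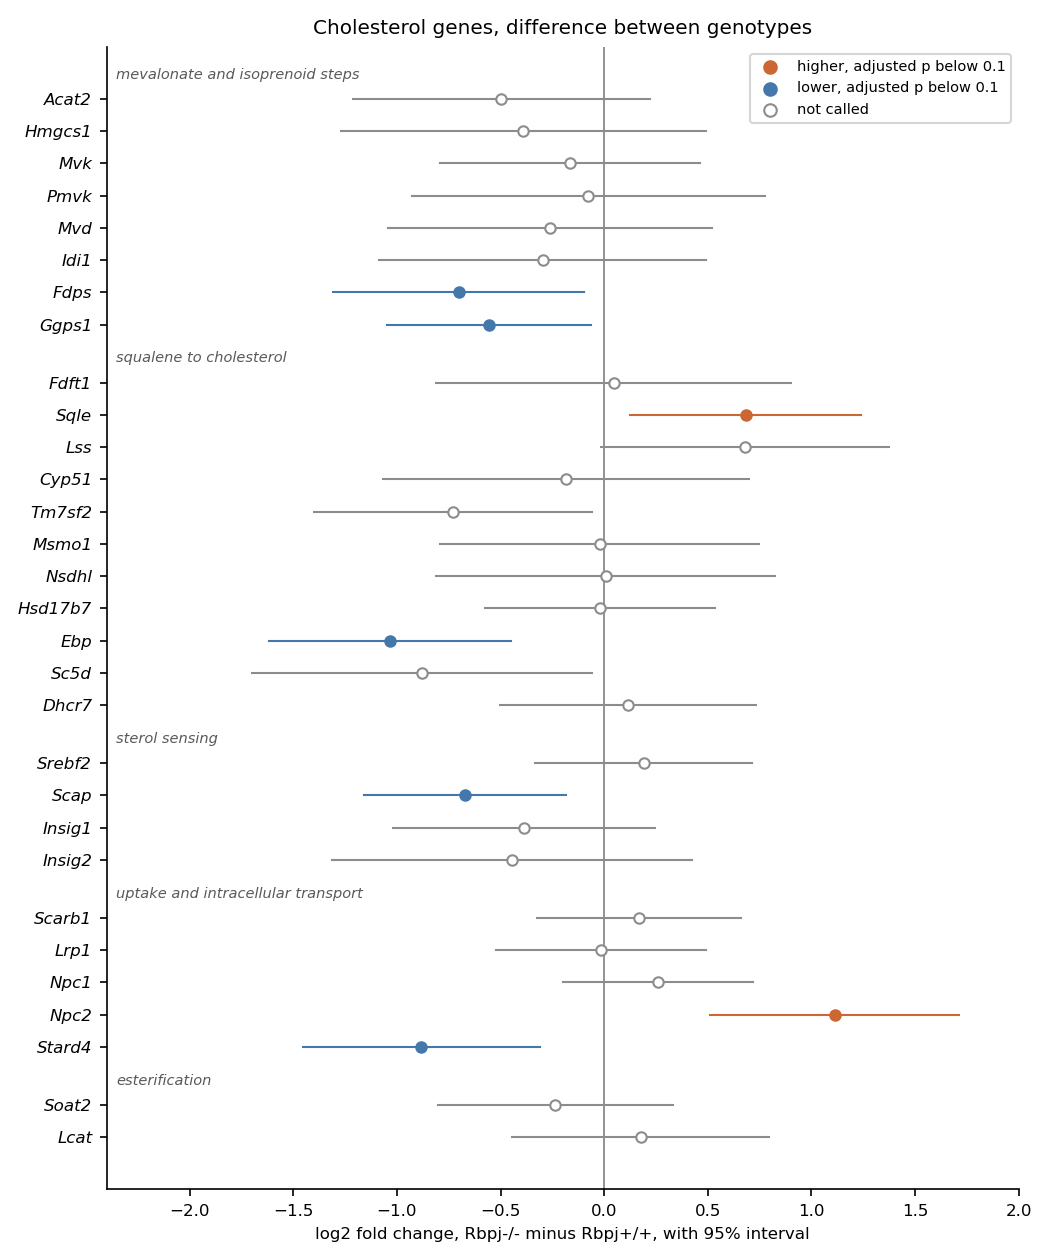
Log2 fold change of *Rbpj*-/- minus *Rbpj*+/+ (x axis) with its 95% interval for the 30 tested cholesterol genes (y axis, by role). Filled points mark the 2 genes called higher (orange) and the 5 called lower (blue), and open grey points the 23 genes not called, among which *Sc5d* and *Tm7sf2* have intervals just below 0.

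The synthesis enzymes differed more between *Rbpj*-/- animals than between *Rbpj*+/+ animals. Over the 19 enzymes of both parts, the median SD was 0.62 in *Rbpj*-/- (n = 3) and 0.34 in *Rbpj*+/+ liver (n = 4), and 16 of the 19 had the larger SD in *Rbpj*-/- liver. Over all tested genes, the median SD was 0.26 in *Rbpj*-/- and 0.31 in *Rbpj*+/+ liver, and 41.9% had the larger SD in *Rbpj*-/- liver. This comparison of spreads was not tested, since the enzymes share the same animals. Among the *Rbpj*-/- animals, -/-_2866 was the highest in 17 of the 19 enzymes and -/-_N3 the lowest in 16. The median deviation of the 19 enzymes from the *Rbpj*+/+ mean was -0.62 in -/-_N3, -0.34 in -/-_N5 and 0.39 in -/-_2866. Over all tested genes it was -0.16, -0.08 and -0.09 in these animals. The *Rbpj*+/+ animals ranged from -0.19 in +/+_991 to 0.33 in +/+_1155.

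Both -/-_N3 and -/-_N5 lay below every *Rbpj*+/+ animal in 8 enzymes (*Acat2*, *Hmgcs1*, *Idi1*, *Fdps*, *Ggps1*, *Tm7sf2*, *Ebp* and *Sc5d*). These are the 2 animals with the lowest medians, and the same count over all tested genes was not made. In 2 of the 8 enzymes, *Ggps1* and *Ebp*, -/-_2866 was also below all *Rbpj*+/+ animals. All *Rbpj*-/- animals thus lay below all *Rbpj*+/+ animals in 2 of the 19 enzymes, against 3970 of 18771 tested genes. The 8 enzymes were picked by the values of -/-_N3 and -/-_N5, so a share among them cannot be set beside that of all genes. The order of the 3 medians was the same under quantile normalization, with -0.44 in -/-_N3, -0.39 in -/-_N5 and 0.45 in -/-_2866. The array of -/-_N3 had a higher share of probes well above background (64.9%) than those of -/-_N5 (47.7%) and -/-_2866 (46.0%). The *Rbpj*+/+ array +/+_1156 also had a high share (61.8%). The part of this share in the levels was not tested.

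The counts depended on these animals. Without -/-_2866, 6 synthesis enzymes were called lower (*Acat2*, *Hmgcs1*, *Fdps*, *Tm7sf2*, *Ebp* and *Sc5d*) and 0 higher, with 27.8% of all genes called, and the median log2 fold change of the 19 enzymes was -0.43. Without -/-_N3, 1 was called lower (*Ebp*) and 1 higher (*Lss*), with 22.7% of all genes called and a median of 0.05. Without -/-_N5, 1 was called lower (*Ebp*) and 0 higher, with 19.5% of all genes called. Without the *Rbpj*+/+ animal +/+_1024 or +/+_991, again *Ebp* alone was called lower and 0 higher, with 22.5% and 26.3% of all genes called. *Ebp* was the only synthesis enzyme called with each of the 7 animals left out in turn.

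**Figure D3:**
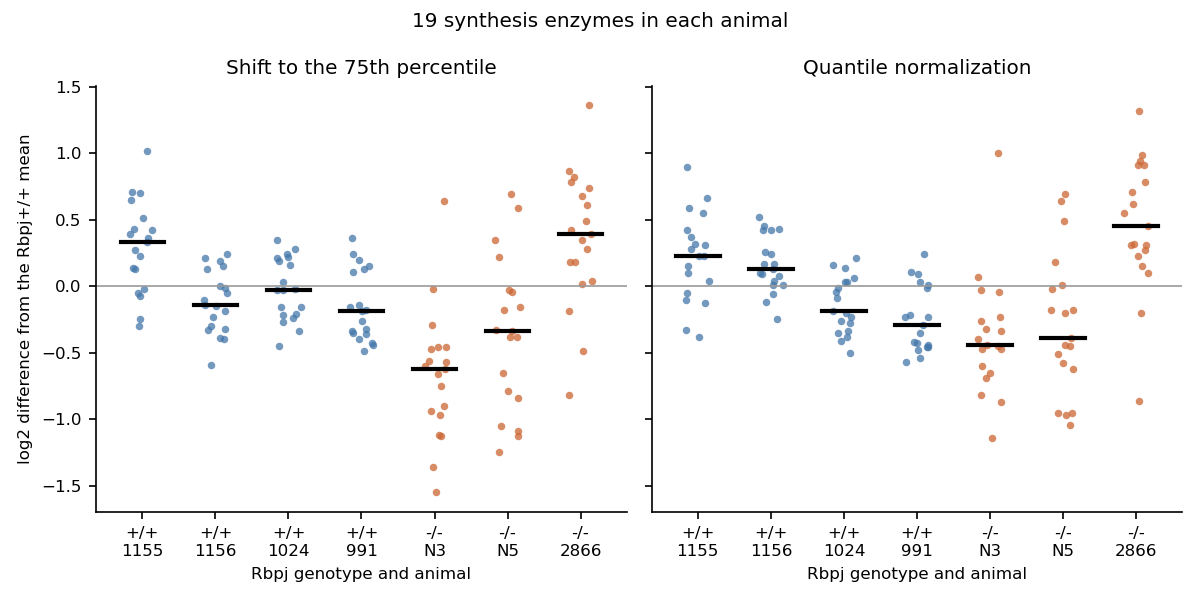
Log2 difference from the *Rbpj*+/+ mean (y axis) of the 19 synthesis enzymes in each animal (x axis), after the shift to the 75th percentile (left) and after quantile normalization (right). Each point is 1 enzyme and the bar is the median, which is below 0 in -/-_N3 (-0.62, left) and -/-_N5 (-0.34, left) and above 0 in -/-_2866 (0.39, left).

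The genes of sterol sensing were represented by 4 members, of which 0 rose, 1 fell and 3 were not called. *Scap*, the escort of SREBP2, had 6.20, 6.01, 6.19 and 6.20 in *Rbpj*+/+ and 5.17, 5.37 and 5.90 in *Rbpj*-/- liver. The *Rbpj*-/- animals lay below all *Rbpj*+/+ animals, with -/-_2866 just below +/+_1156. The log2 fold change was -0.67 (SE 0.22, adjusted p = 0.0524), from a probe at chr9:110287280-110287339 of mm9. *Insig1* and *Insig2*, which retain SCAP, had log2 fold changes of -0.39 and -0.44 and were not called.

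For *Srebf2*, which encodes SREBP2, the probes disagreed. The brighter probe had 0.79, 0.00, 0.53 and 0.36 in *Rbpj*+/+ and 0.38, 0.76 and 0.69 in *Rbpj*-/- liver, which gave a log2 fold change of 0.19 (adjusted p = 0.574). The dimmer probe had -2.87, -3.42, -3.33 and -3.06 against -1.77, -1.60 and -1.71, a log2 fold change of 1.48 (SE 0.20, adjusted p = 0.00214). Its signal exceeded background clearly on 1 of 4 *Rbpj*+/+ arrays and on 3 of 3 *Rbpj*-/- arrays. The dimmer probe thus entered the test only through *Rbpj*-/- liver, and the size of this difference is uncertain. The brighter probe lies at chr15:82034765-82034824 and the dimmer at chr15:82030068-82030127 of mm9.

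Of the 6 genes of uptake and transport, 5 were tested, and 1 rose, 1 fell and 3 were not called. *Npc2* encodes the small lysosomal protein that hands cholesterol from degraded lipoproteins to the membrane protein NPC1. It had 3.37, 2.24, 2.65 and 2.84 in *Rbpj*+/+ and 3.96, 3.84 and 3.86 in *Rbpj*-/- liver. The *Rbpj*-/- values lay close together and above every *Rbpj*+/+ value. *Npc2* had a log2 fold change of 1.11 (SE 0.27, adjusted p = 0.0193), a 2.16-fold difference and the largest of the 30 genes, from a probe at chr12:86097947-86098006 of mm9. *Npc1* itself had 1.63, 1.18, 1.59 and 1.53 against 1.58, 1.98 and 1.66 and was not called, with a log2 fold change of 0.26 (adjusted p = 0.377).

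*Stard4* encodes a soluble sterol carrier that is itself sterol-regulated. Its brighter probe had 4.30, 4.18, 4.44 and 3.83 in *Rbpj*+/+ and 2.83, 3.46 and 3.63 in *Rbpj*-/- liver, without overlap. The log2 fold change was -0.88 (SE 0.25, adjusted p = 0.0363). The dimmer probe, to which the array's design gives no position, had overlapping values and a log2 fold change of 0.21 (adjusted p = 0.551), so the fall rests on 1 probe.

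*Scarb1* encodes SR-BI, the receptor that takes up cholesterol from high-density lipoprotein. Its brighter probe had 5.65, 5.19, 5.94 and 5.63 against 5.66, 5.76 and 5.89, a log2 fold change of 0.17 (adjusted p = 0.605). Its other probe had 1.13, 0.51, 1.10 and 1.72 against 2.40, 2.48 and 2.47, without overlap, and a log2 fold change of 1.34 (SE 0.27, adjusted p = 0.0109). Both probes were well above background on all 7 arrays and lie at chr5:125757483-125757542 and chr5:125761540-125761599 of mm9. *Lrp1*, an endocytic receptor for lipoprotein remnants, was not called with a log2 fold change of -0.01 by its brighter probe.

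In all, 12 of the genes had at least 2 tested probes, and in 5 of them (*Fdft1*, *Ggps1*, *Scarb1*, *Srebf2* and *Stard4*) 1 probe was called and another was not. For *Fdft1* the dimmer probe was called higher with a log2 fold change of 0.82 (adjusted p = 0.028). Only 1 of 4 *Rbpj*+/+ arrays had it well above background, so it too entered the test through *Rbpj*-/- liver. The array's design places the brighter *Fdft1* probe at chr14:19364899-19364958 on the plus strand and the dimmer at chr14:63764562-63764621 on the minus strand. They lie 44.4 megabases apart, so at least 1 of them is placed off the gene. The brighter one stands for *Fdft1* here, but which of them lies on the gene was not determined. The signs of the probes were opposite in 5 genes (*Hsd17b7*, *Mvk*, *Nsdhl*, *Pmvk* and *Stard4*), none of which had probes called in opposite directions.

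**Figure D4:**
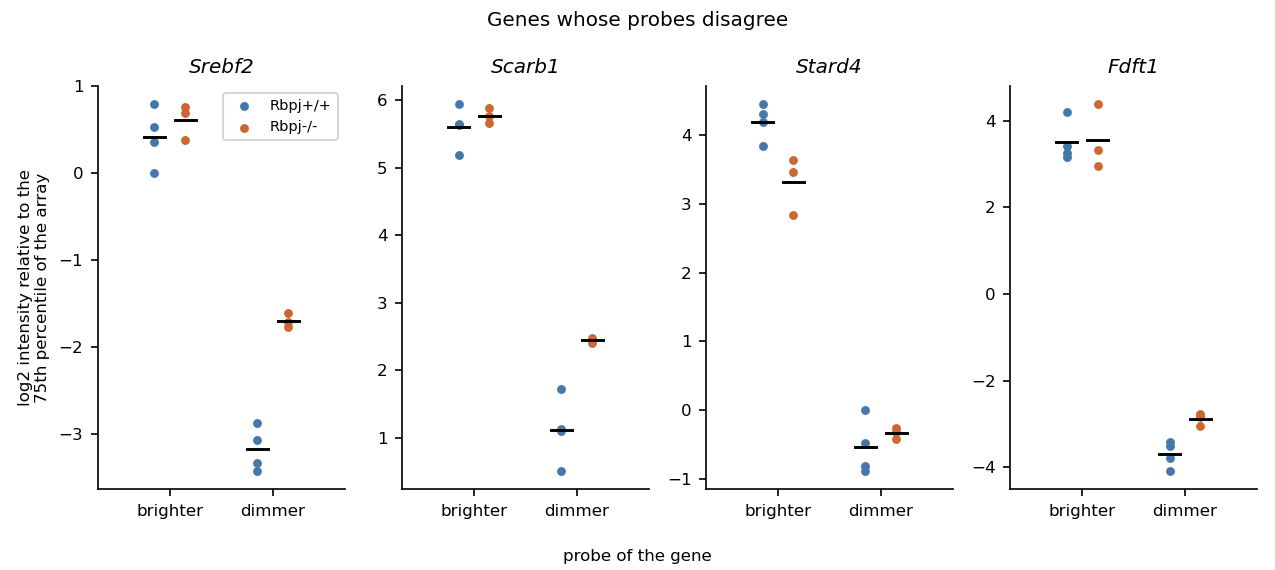
Log2 intensity relative to the 75th percentile of the array (y axis, a separate scale for each gene) of the brighter and the dimmer probe (x axis) of 4 genes, with 1 point per animal and the group mean as a bar. The dimmer probes of *Srebf2*, *Scarb1* and *Fdft1* separate the genotypes while their brighter probes overlap, and for *Stard4* it is the brighter probe that separates them.

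The esterification genes were not called. *Soat2*, which esterifies cholesterol in hepatocytes, had a log2 fold change of -0.24 (95% interval -0.80 to 0.33), and *Lcat*, which is secreted and acts on plasma lipoproteins, had 0.18 (-0.44 to 0.80).

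Other genes of the pathway were followed with 7 lists of neighbouring steps. In these lists 53 genes were tested and 13 (24.5%) were called, 6 higher and 7 lower. Over all genes tested, 34.2% were called, 14.6% higher and 19.6% lower. With detection required on all 7 arrays, 5 of 50 were called higher and 10 lower, with 36.6% of all genes called. In the supply of cytosolic acetyl-CoA, 0 of 4 were called. In the branches of isoprenoid use, 1 rose and 0 fell of 10, namely *Pdss1* of ubiquinone synthesis, with 0.76 (adjusted p = 0.0578). Among the electron carriers and scaffolds of the sterol enzymes, 1 rose and 1 fell of 5. The reductase *Por*, which passes electrons to squalene epoxidase and cytochromes P450, had a log2 fold change of 0.81 (adjusted p = 0.0232), and *Cyb5a*, cytochrome b5, had -0.58 (adjusted p = 0.0546).

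Among lipoprotein receptors and the lysosomal lipase, 2 rose and 1 fell of 8. *Mylip*, a ubiquitin ligase that degrades lipoprotein receptors, had -0.47, -0.31, -0.59 and -0.83 in *Rbpj*+/+ and 0.99, 1.24 and 0.92 in *Rbpj*-/- liver, which gave a log2 fold change of 1.60 (adjusted p = 0.00166). *Vldlr*, the receptor of very-low-density lipoprotein, had a log2 fold change of 1.28 (adjusted p = 0.0318). In sterol transport and esterification, 1 rose and 3 fell of 10. *Soat1*, the esterifying enzyme of macrophages and many other cells, had 1.39 (adjusted p = 0.018). It was clearly above background on only 1 of 4 *Rbpj*+/+ arrays and thus entered the test through *Rbpj*-/- liver. With detection required on all 7 arrays, 0 rose and 3 fell of 9 in this list. The cholesteryl ester hydrolase *Nceh1* had -0.91 (adjusted p = 0.0541).

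In oxysterol sensing and efflux, 1 rose and 1 fell of 7. *Cyp7b1*, the oxysterol hydroxylase of the alternative bile acid pathway, had 5.31, 4.65, 4.83 and 6.11 in *Rbpj*+/+ and 0.64, 0.26 and 1.04 in *Rbpj*-/- liver. This log2 fold change of -4.58 (SE 0.36, adjusted p = 0.000265) was the largest of all these lists. *Abcg1*, a sterol exporter, had 1.56, 1.68, 1.44 and 1.64 against 3.57, 3.62 and 3.13, a log2 fold change of 1.86 (adjusted p = 0.000823). In *Mylip*, *Cyp7b1* and *Abcg1* all 3 *Rbpj*-/- animals, -/-_2866 included, lay outside the *Rbpj*+/+ range. These genes were named for their large called changes, which favours such a separation, and 36.5% of all tested genes had no overlap either.

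The cell types of the liver were read from marker lists, whose counts stand beside 14.6% of all tested genes called higher and 19.6% lower. The summed linear level of 12 hepatocyte markers ranged from 5843 to 8221 in *Rbpj*+/+ and from 4211 to 4928 in *Rbpj*-/- liver, and 7 of 12 were called lower and 0 higher. This depended on the scaling, since under quantile normalization 1 was called lower and 2 higher, with a median log2 fold change of -0.03 in place of -0.63. The sum of 8 macrophage markers ranged from 107.5 to 137.2 in *Rbpj*+/+ and from 355.2 to 467.3 in *Rbpj*-/- liver, with 6 called higher and 1 lower (*Itgam*). *Cd68*, a lysosomal protein of macrophages, had a log2 fold change of 1.53 (adjusted p = 0.00174). The sum of 8 stellate cell and fibroblast markers ranged from 132 to 204 and from 253 to 312, with 6 called higher and 0 lower.

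The sum of the 6 tested of 8 cholangiocyte markers ranged from 3.56 to 4.56 in *Rbpj*+/+ and from 6.56 to 13.1 in *Rbpj*-/- liver. Of these markers, 3 were called higher and 0 lower. The log2 fold changes of the 3 were 1.32 for *Sox9*, 1.66 for *Spp1* and 2.21 for *Cldn7*. *Krt19* (0.25), *Krt7* (-0.45) and *Cftr* (-1.24) were not called, so the rise of the sum was not shared by all 6 markers. The 7 endothelial markers overlapped in sum (34.2 to 46.5 and 36.9 to 51.2), with 3 called higher and 1 lower. The 7 tested proliferation genes ranged in sum from 12.7 to 26.0 and from 52.9 to 71.0, and 7 were called higher. Of the called genes, the endothelial *Tek* exceeded background clearly in 2 of the 4 *Rbpj*+/+ animals and the proliferation gene *Top2a* in 1 of them, so both entered the test through *Rbpj*-/- liver. With detection required on all 7 arrays, 2 of 6 endothelial markers were called higher and 1 lower, and 6 of 6 proliferation genes were called higher. The sums of hepatocyte markers in -/-_N3, -/-_N5 and -/-_2866 were 4211, 4606 and 4928, and those of macrophage markers were 467.3, 355.2 and 419.6. The part of these cell types in the levels of *Npc2*, *Soat1*, *Abcg1* and the synthesis enzymes was not tested.

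The calls of *Ebp* and *Npc2* were the most stable. *Ebp* was called lower and *Npc2* higher in 17 of 18 alternative settings each, the exception being the fit without a filter on dim probes. *Stard4* was called in 14, *Sqle* in 11, *Scap* in 10, *Fdps* in 8 and *Ggps1* in 5 of the 18. The 7 called genes kept the sign of their log2 fold change in all 18. With single animals left out, *Stard4* was no longer called without -/-_N3. *Scap* was not called without +/+_1024, +/+_991, -/-_N3 or -/-_N5, and *Sqle* without any of these or -/-_2866. *Fdps* was not called without +/+_1155, +/+_1024, +/+_991, -/-_N3 or -/-_N5, and *Ggps1* was called only without +/+_1155.

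Over all settings, the log2 fold change ranged from -1.30 to -0.68 for *Ebp*, from 0.90 to 1.34 for *Npc2*, from -1.04 to -0.34 for *Stard4* and from 0.56 to 1.004 for *Sqle*. It ranged from -0.88 to -0.44 for *Scap*, from -0.96 to -0.38 for *Fdps* and from -0.66 to -0.25 for *Ggps1*. The highest adjusted p of any setting was 0.159 for *Ebp*, 0.144 for *Npc2*, 0.284 for *Stard4*, 0.315 for *Sqle*, 0.259 for *Scap*, 0.343 for *Fdps* and 0.367 for *Ggps1*.

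**Figure D5:**
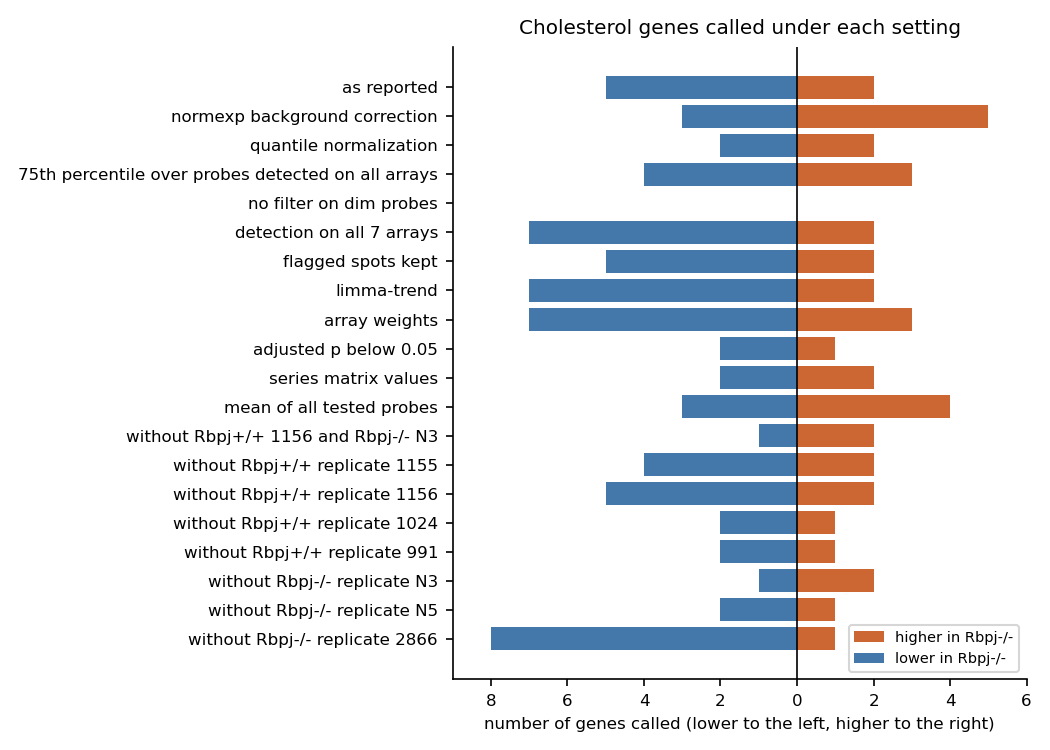
Number of cholesterol genes called in *Rbpj*-/- liver (x axis, lower to the left and higher to the right) under each setting (y axis). The reported setting gives 5 lower and 2 higher, leaving out animal -/-_2866 gives 8 lower and 1 higher, and leaving out -/-_N3 gives 1 lower and 2 higher.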

How the data were processed

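Arrays of whole liver of 4 *Rbpj*+/+ and 3 *Rbpj*-/- mice, 1 per separate animal, were analysed. The deposited intensity values are background-subtracted spot signals from Agilent Feature Extraction 10.7.3.1, which the authors did not scale between arrays, beside mean and local background intensities. The authors' series matrix holds log2 values centred on the median of each probe and served only as an alternative. Control spots and spots flagged as outliers (146 probe values) were removed, and no spot was saturated. Log2 signals of repeated spots were averaged and shifted by the 75th percentile of their array. Probes entered the test if every array of either genotype had them clearly above background, and 24548 of 55681 probes were tested. On single arrays, 41.1% to 64.9% of probes were clearly above background. Precision is limited by 7 arrays, and levels of different probes cannot be compared.

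The genotype difference was estimated with limma (version 3.58.1, R version 4.3.3), and p-values were adjusted by Benjamini-Hochberg over 24548 probes and called at 0.1. Named are all listed cholesterol genes, *Rbpj*, and up to 2 called genes with the largest change of each neighbouring list. The result of 1 neighbouring list, which is part of the totals, is not reported here. *Itgam*, *Cd68*, *Tek*, *Top2a* and the 6 tested cholangiocyte markers were named after their values were seen. The cholesterol genes and all lists were chosen with earlier results of these data known. Probe positions come from the array design (mm9), RefSeq sequences and chromosomes from GRCm38.p6. Tables and figures were made with Python 3.11.15, pandas 2.3.3, scipy 1.17.1 and matplotlib 3.10.9. The limma fit was tested on simulated data. Alternative settings used normexp (offset of 50), quantile normalization, a percentile over probes detected everywhere, no filter, detection on all 7 arrays, flagged spots, array weights, limma-trend, the series matrix, averaged probes, a threshold of 0.05, or fewer animals.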

Additional observations from a re-analysis of the deposited data

Results flagged for a closer look

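In 3 of the 30 tested cholesterol genes, 1 of the 4 *Rbpj*+/+ animals stood apart from the other three by Dixon's criterion, which chance alone meets in about 1 of 20 groups. *Idi1* was 7.08 in animal +/+_1155 and between 6.05 and 6.18 in the others. *Dhcr7* was 3.13 in animal +/+_1156 and between 3.63 and 3.68 in the others. *Scap* was 6.01 in animal +/+_1156 and between 6.19 and 6.20 in the others.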

How the results depend on the processing

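The called genes kept their sign under all 18 alternatives that give a value per gene, while 11 genes that were not called changed sign under at least 1 of them. The number of cholesterol genes called higher (2 as reported) was 5 with normexp, 0 without a filter on dim probes, 1 at a threshold of 0.05 and 4 with the mean of all tested probes. The number called lower (5 as reported) was 3 with normexp, 2 with quantile normalization, 0 without the filter, 2 at 0.05, 2 with the series matrix, 3 with the mean of all probes and 1 without +/+_1156 and -/-_N3 together. It was 7, with *Sc5d* and *Tm7sf2* added, with detection on all 7 arrays, with limma-trend and with array weights. With each animal left out in turn, 1 to 2 were higher and 1 to 8 lower, the last without -/-_2866. Without a filter, limma tested 35715 gene names and called 4.6% of them, and of the 31 cholesterol genes 0 were called, while 5 had an unadjusted p below 0.05. Without the filter, the neighbouring lists gave 3 called genes in place of 13 and the marker lists 17 in place of 34. With each animal left out they ranged from 10 to 19 and from 27 to 33. The causes were not tested.

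Genes that changed sign had small log2 fold changes. With normexp they were 0.033 for *Cyp51*, 0.19 for *Hsd17b7*, 0.19 for *Lrp1*, 0.39 for *Msmo1*, 0.065 for *Mvk*, 0.18 for *Pmvk* and 0.098 for *Soat2*. With quantile normalization they were 0.0014 for *Hsd17b7*, 0.14 for *Lrp1*, 0.26 for *Msmo1* and 0.15 for *Pmvk*, and with the series matrix 0.0040, 0.15, 0.27 and 0.15. With the percentile over probes detected on all arrays they were 0.060, 0.066, 0.058 and 0.0043 for the same genes. With array weights they were 0.14 for *Hsd17b7* and 0.16 for *Msmo1*, and with the mean of all probes 0.13 for *Hsd17b7*, 0.030 for *Mvk*, -0.019 for *Nsdhl* and 0.040 for *Pmvk*. Without +/+_1156 and -/-_N3 together they were 0.20 for *Hsd17b7*, 0.28 for *Msmo1*, 0.12 for *Mvd*, 0.11 for *Mvk*, 0.18 for *Pmvk* and 0.055 for *Soat2*. With each animal left out, the ranges were -0.45 to 0.16 for *Cyp51*, -0.17 to 0.32 for *Dhcr7*, -0.37 to 0.35 for *Fdft1*, -0.14 to 0.20 for *Hsd17b7*, -0.16 to 0.17 for *Lrp1*, -0.40 to 0.20 for *Msmo1*, -0.64 to 0.055 for *Mvd*, -0.39 to 0.12 for *Mvk*, -0.38 to 0.31 for *Nsdhl*, -0.31 to 0.37 for *Pmvk* and -0.43 to 0.053 for *Soat2*. No paired analysis was possible because the animals of the genotypes share no replicate numbers. Signals near background limit the dimmer probes of *Srebf2* and *Fdft1*.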
